A study of Mus musculus with 13 samples.

Results

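RNA of mouse ventricle at postnatal day 1 (PN1) was compared with RNA of ventricle at embryonic day 17 (E17), the 2 stages that lie on either side of birth. These were 2 of the 13 libraries of a study of heart development, chosen by their labelled age and tissue, with 1 library at each stage. Both came from wild-type FvB mice with the atria removed, per the labels. Ventricles at PN10, PN28 and PN90, again 1 library each and of the same strain, served as context for whether a difference lasted, and 2 neonatal cardiomyocyte and 2 neonatal cardiac fibroblast libraries as context for the cell type. The labels do not say whether animals were pooled, nor their sex. With 1 library a stage there is no replicate check of any difference, and no p-value is given.

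Birth moves the heart from placental supply, poor in oxygen and rich in glucose and lactate, to air breathing and fat-rich milk. Over this period cardiomyocytes, the contracting cells, are known to turn from glycolysis towards fatty acid oxidation, to leave the cell cycle and to exchange fetal for adult forms of contractile and ion channel proteins. In mice red cell production shifts through the liver to the bone marrow over the same days.

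Levels are FPKM, fragments per kilobase of transcript relative to library size, summed over the transcripts of a gene and scaled so that the typical gene had the same level in all 5 ventricle libraries. Log2 ratios are PN1 over E17 after 1 FPKM was added to both, which understates the change of low genes. A gene was counted as higher or lower from a 2-fold ratio on this scale if its intervals in the 2 libraries did not overlap. The bounds of a gene's interval were the sums of the 95% bounds that the authors deposited for its transcripts. A summed interval is therefore not itself a 95% interval. The intervals cover the estimate within a library and not the variation between hearts. Depth is known only indirectly: the ratio of deposited coverage to FPKM was 23.7 at PN1 and 25.0 at E17. The median distance from the centre of a deposited interval to its bounds was 4.67% of the value at PN1 and 4.55% at E17. The value itself lay outside its bounds for 29.1% of transcripts above 5 FPKM at PN1 and 29.6% at E17.

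Of 11549 genes with a mean of at least 1 FPKM, 232 (2.01%) were higher and 252 (2.18%) lower at PN1. The median log2 ratio was -0.02 and the quartiles were -0.23 and 0.20. Ratios of 4-fold or more were found for 23 of the higher and 62 of the lower genes. The size of the ratio rather than the interval decided the calls, since intervals were separate for 5851 genes (50.7%) and only 1 gene past 2-fold had overlapping ones. When the libraries were instead scaled to equal FPKM sums without mitochondrially encoded and erythroid genes, the median moved to -0.14 and the split to 189 higher and 376 lower. At the edge of the threshold, Agt had 2.02 FPKM at PN1 against 0.508 at E17 and was counted, and Cers4 had 17.8 against 8.39 and was not. On the lower side Mal, with 0.866 FPKM at PN1 against 2.73 at E17, lay just outside.

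The 4 genes that mark the stages moved by very different amounts. In bulk tissue fewer cells of a type and less RNA per cell cannot be told apart, which holds for these and for every group that follows. H19, the imprinted RNA of fetal growth (mm9 chr7:149761434-149764048), had 1670 FPKM at PN1 and 4799 at E17, a log2 ratio of -1.52, and then 260, 33.8 and 27.5 FPKM at PN10, PN28 and PN90. Bmp10, a growth factor of embryonic trabeculae and of the atria (mm9 chr6:87378996-87384506), had 2.15 FPKM at PN1 and 23.8 at E17 (-2.98). Slc4a1, the anion exchanger of the red cell membrane (mm9 chr11:102210138-102227517), had 1.10 FPKM at PN1 and 25.4 at E17 (-3.65). Ckmt2, the creatine kinase of muscle mitochondria (mm9 chr13:91992992-92016490), had 130 FPKM at PN1 and 25.6 at E17 (2.30), and went on to 809 FPKM at PN10, 1946 at PN28 and 1911 at PN90. Of 16 ventricular cardiomyocyte markers 12 could be ranked, and 0 of them were under 1 FPKM in either library. Myh6, Myh7, Myl2 and Ttn were among 42 genes left out because transcripts of theirs were listed at 0 with a status of failed or too deeply covered.

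**Figure D1:**
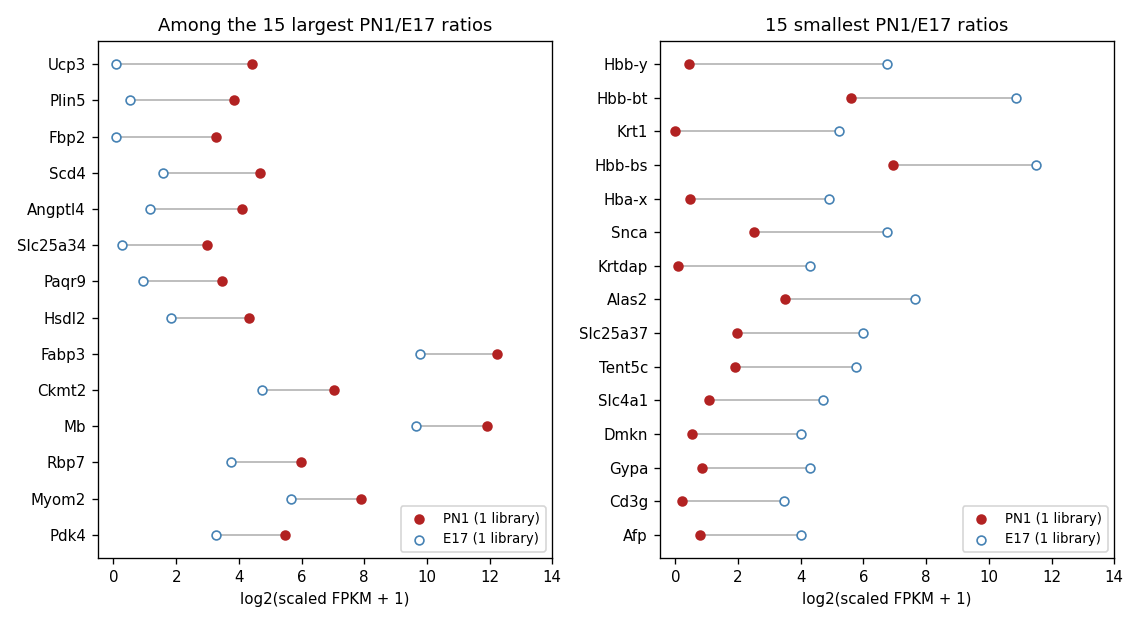
Level of genes among the 15 largest and of the 15 smallest PN1/E17 ratios past the threshold, without genes that have only a predicted name, as log2 of scaled FPKM + 1; filled points are the PN1 library and open points the E17 library. Ucp3 leads the left panel with 20.3 FPKM at PN1 against 0.0687 at E17, and Hbb-y the right panel with 0.351 against 106.

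Genes of fat use were prominent among those that rose most at PN1. Ucp3, a mitochondrial carrier protein of muscle (mm9 chr7:107621499-107634941), had 20.3 FPKM at PN1 and 0.0687 at E17 (4.31), and Plin5, which coats lipid droplets at mitochondria, had 13.4 and 0.435 (3.32). Angptl4, a secreted inhibitor of lipoprotein lipase, had 16.2 FPKM at PN1 and 1.22 at E17 (2.95). Pdk4, the kinase that shuts pyruvate out of the citric acid cycle, had 43.8 FPKM at PN1 and 8.69 at E17 (2.21), and 265 at PN10. The most abundant RNA of the group was Fabp3, the fatty acid binding protein of heart muscle, with 4799 FPKM at PN1 and 878 at E17 (2.45), followed by 4255, 3904 and 5519 FPKM at the later stages.

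Among 29 ranked genes of fatty acid oxidation 17 were higher and 0 lower at PN1, against 2.01% and 2.18% of all ranked genes. All 29 log2 ratios were positive and their median was 1.16, against -0.02 over all genes. Higher members stood at activation, carnitine transport and beta oxidation. Acsl1, which activates fatty acids with coenzyme A, had 231 FPKM at PN1 and 68.7 at E17 (1.73). For passage into the mitochondrion, Slc25a20 had 89.5 FPKM at PN1 and 28.4 at E17 (1.62), and Cpt2 had 77.9 and 25.4 (1.58). Within the matrix, the very-long-chain dehydrogenase Acadvl had 394 FPKM at PN1 and 92.9 at E17 (2.07). The trifunctional enzyme subunits followed, Hadha with 816 and 238 (1.77) and Hadhb with 302 and 99.7 (1.59). Decr1, which reduces the double bonds of unsaturated fats, had 108 FPKM at PN1 and 22.7 at E17 and the largest ratio of the list (2.20). Cpt1a, the liver form of the gatekeeping carnitine transferase, was 17.4 against 8.13 FPKM (1.01), and the muscle form Cpt1b, at 167 against 84.7 (0.97), stayed just under the threshold. The smallest ratios were those of Echs1 (0.21) and of the peroxisomal thiolase Acaa1a (0.10).

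In a list of 31 ranked genes of lipid handling and the fasting response, which shares members with the list above, 16 were higher and 1 lower (median 1.32). Cd36, which takes fatty acids up, had 516 FPKM at PN1 and 149 at E17 (1.78). Triglyceride synthesis and breakdown were both represented among the higher genes. Dgat2, which makes triglyceride, had 14.8 FPKM at PN1 and 4.99 at E17 (1.40). Lipe and Mgll, lipases of separate steps in triglyceride breakdown, had log2 ratios of 1.65 and 1.37. Transcriptional regulators of the PPAR and Ppargc1 families did not pass: Ppara had 6.65 FPKM at PN1 and 5.37 at E17, Ppargc1a 46.9 and 49.6, and Ppard 1.12 and 1.32. Nearest to the threshold was Pparg, with 3.56 FPKM at PN1 and 1.61 at E17 (0.80), and Ppargc1b had 3.64 and 3.79. Bdh1 and Oxct1 encode enzymes by which the heart burns ketone bodies. Bdh1 was lower, with 0.694 FPKM at PN1 and 4.25 at E17 (-1.63), and then 0.0950, 16.0 and 84.6 FPKM at PN10, PN28 and PN90. Oxct1 had 173 FPKM at PN1 and 290 at E17 (-0.74, not past the threshold), and 1631 and 1501 FPKM at PN28 and PN90. Scd4, a heart form of the desaturase that makes monounsaturated fats, was outside both lists and had 24.6 FPKM at PN1 and 2.00 at E17 (3.09), then 16.8, 3.92 and 2.78.

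**Figure D2:**
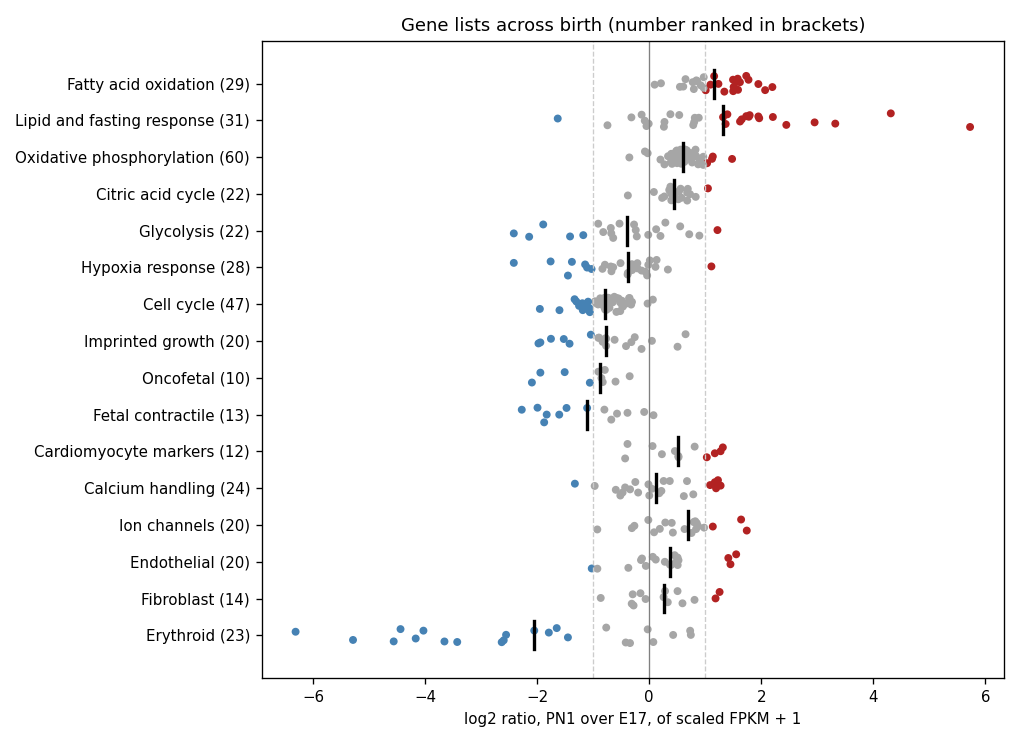
Log2 ratio of PN1 over E17 for each ranked gene of 16 lists, 1 point a gene; red points were higher and blue points lower past the threshold, black bars are medians and dashed lines mark 2-fold. All 29 fatty acid oxidation genes lie to the right of 0 and 46 of 47 cell cycle genes to the left.

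The promoters of these genes are shown because many factors that control fat use, among them the PPAR and estrogen-related receptors, are nuclear receptors that bind variants of the letters AGGTCA. Promoters (250 bases before to 50 after each start, RefSeq, GRCm38.p6) were found for 159 higher, 169 lower and 8688 ranked genes. AGGTCA on either strand was present for 45 higher genes (28.3%), 25 lower genes (14.8%) and 14.3% of all ranked genes. Among 25 higher genes of the lipid lists it was present for 7 (28.0%), while a direct repeat of it with 1 base between, searched on both strands and by construction including the shorter motif, was in 0 of the 159 and in 5 of the 8688. In the windows below, written 5' to 3' on the gene's strand, capitals mark AGGTCA or its complement TGACCT. They lie at chr7:100472910-100472989 (plus strand) for Ucp3, chr17:56117676-56117755 (minus) for Plin5, chr11:70015473-70015552 (minus) for Acadvl, chr12:16610998-16611077 (minus) for Lpin1 and chr19:3323170-3323249 (plus) for Cpt1a.
Ucp3: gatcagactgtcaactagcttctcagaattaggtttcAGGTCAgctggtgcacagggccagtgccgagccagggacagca
Plin5: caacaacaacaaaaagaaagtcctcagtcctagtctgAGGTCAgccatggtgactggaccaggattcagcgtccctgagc
Acadvl: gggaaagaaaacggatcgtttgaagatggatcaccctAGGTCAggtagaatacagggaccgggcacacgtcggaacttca
Lpin1: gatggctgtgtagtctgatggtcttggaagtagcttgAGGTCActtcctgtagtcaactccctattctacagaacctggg
Cpt1a: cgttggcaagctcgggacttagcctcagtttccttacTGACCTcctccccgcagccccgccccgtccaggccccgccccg
The motif of Ucp3 ended 38 bases before the start and that of Acadvl 81 bases before it. A match describes these letters and is not evidence of binding. Of the other motifs searched on both strands, the hypoxia factor core ACGTG was in 24.5% of higher and 27.8% of lower genes and in 2608 of the 8688 ranked genes, and the AP-1 motif TGANTCA in 11.9% of higher, 10.1% of lower and 5.73% of ranked genes. TTTCCCGC, TTTGGCGC (both E2F), CCACACCC and TGACGTCA (CRE) were each in at most 6.29%, 5.33% and 4.29%. None of these contains another of the motifs.

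The respiratory chain moved less than fat oxidation and in the same direction. Of 60 ranked genes of oxidative phosphorylation 57 had positive log2 ratios (median 0.60), but 4 passed 2-fold and 0 were lower. These 4 are all subunits of cytochrome oxidase. Cox8b and Cox6a2, the muscle forms, had 345 FPKM at PN1 against 123 at E17 (1.48) and 610 against 277 (1.14). Cox6c had 4346 FPKM at PN1 and 1995 at E17 (1.12), and Cox5b 2606 and 1271 (1.03). The more widely expressed partners were not higher: Cox8a had a log2 ratio of -0.03 and Cox6a1 of -0.35. Of 22 citric acid cycle genes 21 had positive ratios (median 0.44), with 1 past the threshold. The calls of Cox6a2, Cox6c and Cox5b were lost under scaling to equal sums. Mb, the oxygen store of muscle, had 3840 FPKM at PN1 and 802 at E17 (2.26).

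Glycolysis held changes in both directions, with 5 of 22 ranked genes lower and 1 higher (median -0.40). Slc2a1, the glucose transporter that prevails in the fetal heart, had 3.01 FPKM at PN1 and 20.4 at E17 (-2.42), and stayed between 1.10 and 3.29 FPKM later. Lower too were Tpi1 (9.92 against 47.2 FPKM, -2.14), Pgam1 (38.5 against 146, -1.89), Eno1 (124 against 332, -1.41) and Pfkp (47.2 against 108, -1.18). The muscle enolase Eno3 was higher, with 428 FPKM at PN1 and 183 at E17 (1.22), so Eno1 and Eno3 moved in opposite directions. Fbp2, the muscle enzyme that opposes phosphofructokinase, had 8.74 FPKM at PN1 and 0.0679 at E17 (3.19). Tpi1, Pgam1 and Eno1 have near-identical pseudogenes, which makes their FPKM less certain.

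Targets of the hypoxia response overlapped with this group. Of 28 ranked genes 7 were lower and 1 higher (median -0.38). Besides Slc2a1, the lower ones included Hif3a (0.866 FPKM at PN1, 5.31 at E17, -1.76), Igfbp3 (10.7 and 30.9, -1.45), Bnip3l (77.5 and 203, -1.38), Ak4, Pfkfb3 and P4ha1. Epas1, which encodes the oxygen-regulated factor HIF-2 alpha, was the higher one, with 13.1 FPKM at PN1 and 5.54 at E17 (1.11) and 48.2 at PN10. Slc2a1 and Bnip3l are also known from red cells and their precursors, whose markers were far lower at PN1, and the part of red cells in these values was not tested.

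Cell cycle genes were lower as a group but still present. Of 47 ranked genes 12 were lower and 0 higher, 46 had negative log2 ratios and the median was -0.78. Ube2c, a ubiquitin carrier of mitotic exit, had 43.4 FPKM at PN1 and 134 at E17 (-1.60), and Ccnb1, the cyclin of mitotic entry, had 38.2 and 95.4 (-1.30). Ect2, which organises cytokinesis, had 8.47 FPKM at PN1 and 22.8 at E17 (-1.33). The decline had far to go after PN1: Ccnb1 had 8.14 FPKM at PN10, 1.27 at PN28 and 0.731 at PN90, and Ube2c had 12.4, 2.92 and 2.33. The largest ratio of the list was that of E2f2 (2.08 against 10.9 FPKM, -1.95), a factor with a known role in red cell precursors as well. Of 13 ranked inhibitors of the cycle 1 passed, the imprinted Cdkn1c, and it was lower, with 16.6 FPKM at PN1 and 68.2 at E17 (-1.98).

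Imprinted growth genes were lower, as were other genes of fetal growth. Of 20 ranked members 6 were lower and 0 higher (median -0.77). Igf2, the fetal growth factor, had 121 FPKM at PN1 and 249 at E17 (-1.04), and then 49.0, 8.53 and 3.69 FPKM. Dlk1, an imprinted inhibitor of differentiation, had 1.40 FPKM at PN1 and 8.22 at E17 (-1.94), and the zinc finger gene Zim1 had 2.61 and 11.2 (-1.75). Among 10 ranked oncofetal genes 4 were lower and 0 higher (median -0.88). Gpc3, a proteoglycan that restrains growth, had 24.2 FPKM at PN1 and 107 at E17 (-2.09), and Igf2bp1, an RNA-binding protein of embryonic tissue, had 1.75 and 6.81 (-1.51). Of the insulin and IGF list (17 ranked) 3 were lower, all of them IGF binding proteins (Igfbp6, Igfbp2 and Igfbp3).

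Fetal contractile and stress genes were the cardiomyocyte group with the most lower members, 7 of 13 ranked against 0 higher (median -1.11). Myl4, the embryonic and atrial essential light chain, had 343 FPKM at PN1 and 1662 at E17 (-2.27). The natriuretic peptides followed, Nppb with 53.0 and 214 (-1.99) and Nppa with 157 and 560 (-1.83). Ankrd1, a stretch-responsive protein of the sarcomere and nucleus, had 170 FPKM at PN1 and 627 at E17 (-1.87). For Nppb and Ankrd1 the low level at PN1 did not last: Nppb had 121, 370 and 1039 FPKM at PN10, PN28 and PN90, and Ankrd1 had 499, 1265 and 2769, above E17 from PN28 on. Not every fetal form moved at birth. Tnni1, the fetal troponin I, had 782 FPKM at PN1 and 741 at E17 (0.08) and only 42.0 at PN10, while the adult form Tnni3 had 4378 and 2144 (1.03).

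Because Myl4, Nppa, Myl7, Sln and Bmp10 are also atrial genes, the whole atrial list was examined. Of 12 ranked members 6 were lower and 0 higher (median -1.02). The other 4 members were under the filter on low levels, and with no filter the median was -0.38. The summed level was 794 FPKM at PN1, 3000 at E17, 176 at PN10, 653 at PN28 and 398 at PN90. Embryonic ventricle is known to express several of them, and the part of remaining atrial tissue in the E17 level was not tested. The labels state that atria were removed.

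**Figure D3:**
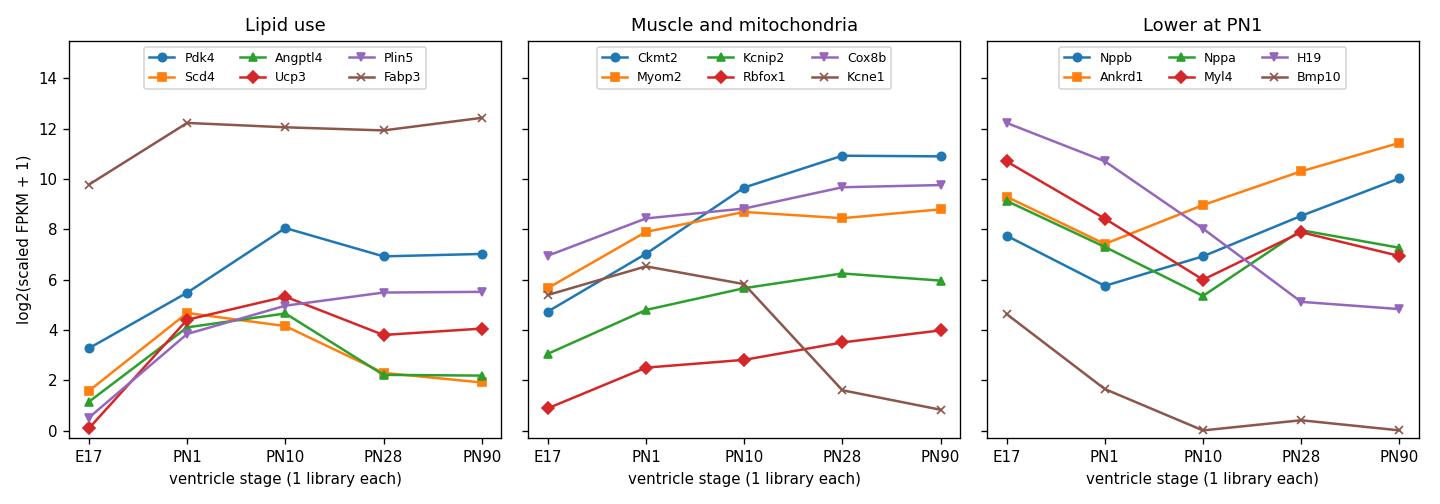
Level of 18 genes at the 5 ventricle stages, as log2 of scaled FPKM + 1, 1 library a stage. Scd4 peaks at PN1, Ckmt2 climbs on to 1911 FPKM at PN90, and Nppb and Ankrd1 are lowest at PN1.

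Adult muscle genes were higher in smaller number. Of the 12 ranked cardiomyocyte markers 4 were higher and 0 lower (median 0.52). Tcap, which caps titin at the Z disc, had 93.9 FPKM at PN1 and 37.1 at E17 (1.32). Myom2, an M band protein of mature muscle, had 238 FPKM at PN1 and 49.8 at E17 (2.23). Of 24 ranked calcium handling genes 5 were higher and 1 lower. The list shifted little as a whole, with 14 positive and 10 negative ratios (median 0.12, or -0.03 under scaling to equal sums). The pump Atp2a2 had 769 FPKM at PN1 and 335 at E17 (1.20), its inhibitor Pln 2534 and 1046 (1.28), and the release channel Ryr2 100 and 43.9 (1.17). Sln, the atrial inhibitor of the pump, was the lower one, with 28.0 and 71.7 (-1.33). Among 20 ranked ion channel genes 3 were higher and 0 lower (median 0.70, or 0.42 with no filter on low levels). Kcnip2, a subunit of the transient outward potassium current, had 26.8 FPKM at PN1 and 7.31 at E17 (1.74), and 75.0 at PN28. Kcne1, a subunit of the slow delayed rectifier, had 91.4 FPKM at PN1 and 41.0 at E17 (1.14), and then only 55.7, 2.05 and 0.783. Under scaling to equal sums Tnni3 and Kcne1 fell short of the threshold.

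Red cell genes held the lowest log2 ratios of all, those of the globins Hbb-y (-6.31) and Hbb-bt (-5.29). Of 23 ranked erythroid genes 15 were lower and 0 higher (median -2.05). A further 12 members were under the filter on low levels, which a member could pass through its E17 value alone, and with no filter the median was -0.77. The summed level of the list was 394 FPKM at PN1 against 5543 at E17, with 600, 689 and 616 later. The embryonic globins Hbb-y and Hba-x had 0.351 and 0.381 FPKM at PN1, against 106 and 28.9 at E17, and were listed at 0 from PN10 on. The adult globin Hbb-bt had 47.3 FPKM at PN1 and 1883 at E17 (-5.29), and 62.0, 48.5 and 51.8 later. Its near-identical neighbour Hbb-bs (122 and 2903) shares reads with it, so how they divide is uncertain. Alas2, the first enzyme of heme synthesis in red cells, had 10.3 FPKM at PN1 and 201 at E17 (-4.17). The iron importer of their mitochondria, Slc25a37, had 2.93 and 63.1 (-4.03). Erythroid list members that other cells also use did not follow, as Tfrc had 71.5 FPKM at PN1 and 42.7 at E17 and Ank1 39.3 and 23.1. Isolated neonatal cardiomyocytes, prepared with another library kit, held Hbb-bt at 6607 and 9241 FPKM and Alas2 at 146 and 159. Whether blood was rinsed from the ventricles is not given in the labels, and its part in the difference was not tested.

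Promoters of the erythroid genes are shown because GATA factors, which recognise the letters AGATAA and TGATAA, govern red cell genes. Of 9 lower erythroid genes with a promoter in the tables, AGATAA on either strand was present for 5 (55.6%, against 7.56% of ranked genes) and TGATAA for 4 (44.4%, against 5.40%). In the windows below, 5' to 3' on the gene's strand, capitals mark these letters or their complements. Over all promoters AGATAA was in 11.9% of higher and 14.2% of lower genes, and TGATAA in 5.03% and 11.2%. They lie at chrX:150547294-150547373 (plus strand) for Alas2, chr11:32276455-32276534 (plus) for Hba-x, chr7:103828096-103828175 (minus) for Hbb-bs and chr6:41704326-41704405 (minus) for Kel, a blood group antigen (GRCm38.p6, RefSeq).
Alas2: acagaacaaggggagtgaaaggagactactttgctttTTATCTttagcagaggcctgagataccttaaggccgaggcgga
Hba-x: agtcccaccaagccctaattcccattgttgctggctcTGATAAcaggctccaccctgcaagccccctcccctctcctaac
Hbb-bs: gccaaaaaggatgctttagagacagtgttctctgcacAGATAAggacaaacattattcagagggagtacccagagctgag
Kel: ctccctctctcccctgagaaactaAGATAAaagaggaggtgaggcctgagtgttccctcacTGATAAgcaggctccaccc
Kel holds both motifs, and its level was 0.0376 FPKM at PN1 and 2.25 at E17 (-1.65).

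The E17 library also held RNA of genes known as markers of organs outside the heart. Markers of epidermis summed to 1.92 FPKM at PN1 and 113 at E17, and between 1.46 and 1.96 later. The keratin Krt1 was listed at 0 at PN1 and had 36.2 FPKM at E17, and Krtdap had 0.0524 and 18.8. Thymus markers, several of which are also genes of lymphocytes elsewhere, summed to 2.66 FPKM at PN1 and 44.8 at E17, with Rag1, the recombinase of developing lymphocytes, at 0.0168 and 3.15. Markers of skeletal muscle summed to 11.4 FPKM at PN1 and 40.9 at E17, but also to 61.3 at PN28. Those of liver summed to 13.5 FPKM at PN1 and 73.4 at E17, with albumin (Alb) at 3.17 and 30.7. Every ranked member of the epidermis list (10) and of the thymus list (9) was lower at PN1, but a member could pass the filter on low levels only through its E17 value, and 12 and 11 further members did not pass it. The epidermis and thymus lists were made after such genes were seen among the lowest ratios. Together the lists of other organs held 31 of the 252 lower genes, the erythroid list 15 and the atrial and mesothelial lists 12, or 58 in all of these. The source of this RNA was not tested. Limiting the ranking to genes with at least 1 FPKM in a neonatal cell library left 215 higher and 197 lower genes.

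**Figure D4:**
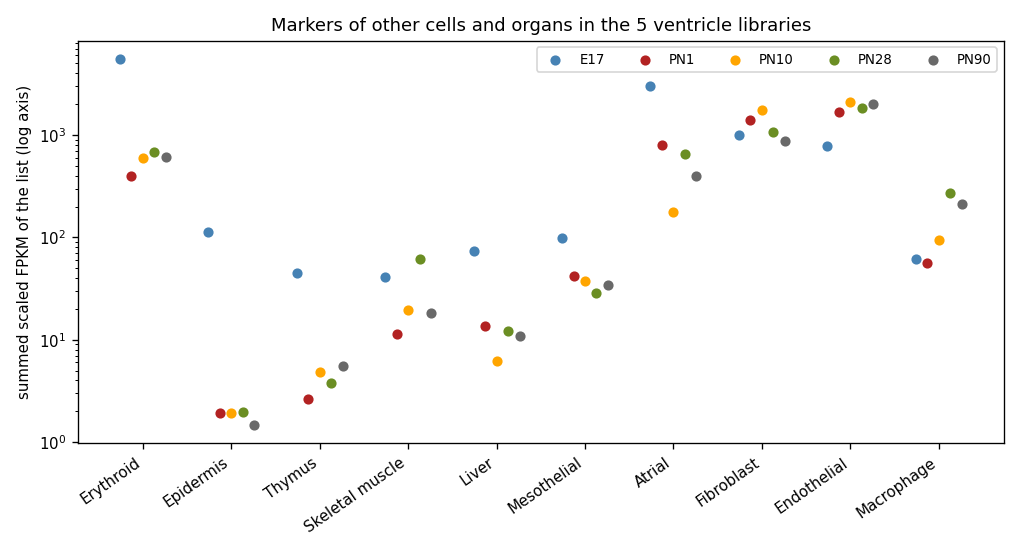
Summed scaled FPKM of 10 marker lists in the 5 ventricle libraries, on a log axis. E17 stands above the other 4 stages for erythroid, epidermis, thymus, liver, mesothelial and atrial markers, and not for skeletal muscle, fibroblast, endothelial or macrophage markers.

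Other cells of the heart changed in a few genes. Mesothelial and epicardial markers, of the outer cell layer of the heart and of body cavity linings, were lower for 7 of 12 ranked genes (median -1.12, or -0.67 over members with a mean of at least 5 FPKM and -1.73 with a pseudocount of 0.1), among them the keratins Krt8, Krt19 and Krt18 and the uroplakins Upk3b and Upk1b. Endothelial markers were higher for 3 of 20 and lower for 1 (median 0.38, or 0.25 under scaling to equal sums). Fabp4, a fatty acid binding protein of capillaries, had 1296 FPKM at PN1 and 473 at E17 (1.45). The junction protein Cldn5 had 14.3 and 4.74 (1.41), and the apelin receptor Aplnr had a log2 ratio of 1.55. Of 14 fibroblast markers 2 were higher, Dpt (127 against 55.1 FPKM, 1.19) and Mfap5. Of 37 extracellular matrix genes 1 was higher (Lama2) and 1 lower (fibronectin, Fn1), near the 2.01% and 2.18% of all ranked genes. The pericyte gene Rgs5 had 116 FPKM at PN1 and 39.4 at E17 (1.53), whereas the smooth muscle genes Cnn1 (3.40 against 24.7) and Acta2 (185 against 563) were lower. None of 14 ranked macrophage, 7 platelet and 2 neutrophil markers passed the threshold.

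Most differences were still seen later. Of 231 higher genes with a value at PN10, 181 (78.4%) were at or above their PN1 level there, as were 182 of 228 (79.8%) at PN90, and 14 were at or under their E17 level at PN90. Of the 252 lower genes 166 (65.9%) were at or under their PN1 level at PN90 and 20 (7.94%) back at or above that of E17. For 27 of 228 higher genes PN1 was the highest of the 5 stages, with Scd4, Acot2 and Cldn5 among them, and for 60 of 252 lower genes it was the lowest. The PN1 and E17 libraries that chose these genes enter the counts, which are therefore a description. The same shares were not counted over all ranked genes. The lower genes include 15 of the erythroid list and 31 of the lists of other organs.

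Libraries of isolated cells placed most higher genes on the cardiomyocyte side. The cardiomyocyte preparations also held endothelial and red cell RNA: Fabp4 averaged 2797 FPKM in them and 707 in fibroblasts, and Alas2 153 and 0.723, so a gene higher in them need not be a cardiomyocyte gene. In the neonatal cell libraries, which the choice of genes did not use, 143 of 232 higher genes (61.6%) were at least 2-fold higher in the cardiomyocyte than in the fibroblast preparations, against 47 of 250 lower genes (18.8%) and 11.5% of all ranked genes. A level at least 2-fold higher in fibroblasts was found for 12 higher genes (5.17%), 21 lower genes (8.40%) and 5.82% of all. Under 1 FPKM in all 4 cell libraries were 17 higher genes (7.33%), 53 lower genes (21.2%) and 5.56% of all. Fabp3 had 1878 and 1912 FPKM in the cardiomyocyte libraries and 188 and 149 in the fibroblast libraries. Afp, the fetal liver protein, had at most 0.106 FPKM in any of the 4.

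**Figure D5:**
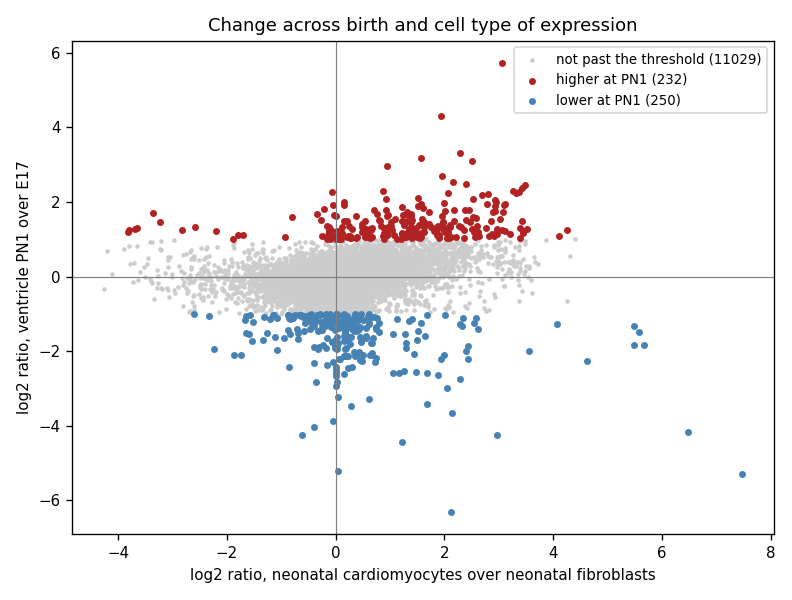
Log2 ratio of ventricle PN1 over E17 against the log2 ratio of neonatal cardiomyocytes over neonatal fibroblasts (means of 2 libraries each, 1 FPKM added), 1 point a gene. Red points (232, higher at PN1) lie mostly to the right of 0, and blue points (250, lower at PN1) are centred near it.

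Isoform use changed in a small set of genes. Among 4516 genes with 2 or more isoforms and a mean of at least 5 FPKM, 86 isoforms of 61 genes passed 2 conditions. Their share of their gene's total differed by at least 20 percentage points, and the intervals of their FPKM were separate. The intervals are of the isoform's FPKM and not of its share, so a change of the whole gene can also separate them. These shares are estimates that Cufflinks makes from overlapping isoforms. The largest differences were those of Hbb-bs, whose retained-intron form Hbb-bs-202 made 68.2% of the total at PN1 and 0.277% at E17, while the coding form fell to 38.8 FPKM at PN1, against 2894 at E17. Cacnb2-202, a form of a calcium channel subunit, was near 0 at PN1 and made 43.8% at E17, with 3.57% at PN10 and near 0 again later. Ptgis-202, of prostacyclin synthase, made 72.7% at PN1 and 30.7% at E17, and 81.7%, 82.6% and 83.2% later. Cdadc1-203 had 50.3% at PN1 and 0.0378% at E17, but 0.0278% at PN10, so its share at PN1 was not kept. Chosen after its values were seen, the shorter form of the M band gene Myom1 (Myom1-201, 5354 nucleotides) made 81.0% at PN1 and 42.6% at E17, then 94.8%, 89.9% and 95.3%.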

How the data were processed

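The authors deposited FPKM of 94696 transcripts per library with 95% bounds and coverage signal, in the Cufflinks isoform format per the file headers. Alignment with TopHat2 2.0.5 to mm9 and quantification with Cufflinks 2.1.1 are named in the submitters' processing notes, without the annotation. Per the labels' protocols, ventricle RNA was depleted of ribosomal RNA and cell libraries used another kit, so ventricle and cell levels were not divided by each other. From the deposited tables, identifiers were matched to GENCODE M21 for names (82384, 87.0%). Transcripts of at least 200 nucleotides and status OK were summed per gene, and 42 genes with a failed or overloaded transcript were left out. Libraries were scaled by the median of ratios over the 5 ventricles with Python 3.11.15, pandas 2.3.3 and numpy 2.4.6. The procedure was tested on simulated data made from the E17 library, with all set changes beyond 2-fold and no variation between hearts. This checked the code and says nothing about how reliable the calls are. The deposited bounds did not contain the FPKM for 29.1% of transcripts above 5 FPKM at PN1 and 29.6% at E17. Genes named are the 15 highest and 15 lowest ratios without sex-linked genes and genes that have only a predicted or clone name, the stage markers, the 4 largest ratios of each list and the 6 largest isoform changes; other list members with values were chosen after their values were seen. The members and lists were chosen with earlier results of these data known. A few genes that this rule names are not reported here.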

Additional observations from a re-analysis of the deposited data

How the results depend on the processing

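Across 12 other settings the counts of higher and lower genes stayed within 1.5 times those reported, except that the lower count was 392 with a pseudocount of 0.1 FPKM and 136 with a mean of at least 5 FPKM; with these the higher counts were 337 and 166. Of 1307 recomputed values of 122 named genes past the threshold 1299 kept their call, 8 lost it, all under scaling to equal sums, and 0 reversed. Among these were Cox5b, Cox6a2, Cox6c, Kcne1, Tnni3 and the autophagy genes Map1lc3a and Trp53inp2, each just above 2-fold. Several settings could not lose a call: leaving out the intervals or the filter, or a smaller pseudocount, can only keep or add calls. Genes that a mean of at least 5 FPKM removed were not counted as losing theirs. Without scaling the counts were 246 and 276, and with no filter on low FPKM 236 and 285. Intervals recentred on the FPKM, an alternative chosen after seeing the data, gave 232 and 253. Summing the other transcripts of genes left out for status left the number ranked at 11549 and the counts at the reported 232 and 252. This brought no gene back into the ranking, so it says nothing about the genes left out. No paired analysis was possible because each stage has 1 library. The hearts, their dissection and the library of a stage cannot be told apart, and depth is known only indirectly.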

Other observations

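The lists below stand apart from energy use and growth. Over all ranked genes 2.01% were higher and 2.18% lower. Of 32 ranked glucocorticoid and circadian genes 4 were higher and 0 lower. The list had no shift as a whole (median 0.03, with 17 positive and 15 negative ratios). Among the higher ones was Klf9, a hormone-induced repressor, with 14.3 FPKM at PN1 and 4.08 at E17 (1.59). The clock genes Nr1d2 (23.7 and 8.86) and Per3 (4.95 and 1.81) were higher too. Of 7 ranked thyroid hormone genes Klf9 and Thrsp were higher (median of the list 0.16). Of 19 ranked antioxidant and metallothionein genes 1 was higher and 2 lower (median 0.09). Txnip, which binds thioredoxin and limits glucose uptake, had 238 FPKM at PN1 and 73.2 at E17 (1.69). The peroxidases Gpx3 (16.8 and 46.1) and Gpx1 (83.7 and 177) were lower. Of 19 ranked genes of amino acid and endoplasmic reticulum stress 3 were lower and 0 higher (median -0.52). These were the serine synthesis genes Phgdh (4.06 and 20.9, -2.11) and Psat1 (4.66 and 11.5, -1.14) and Sdf2l1. None of 49 ranked ribosomal protein genes passed the threshold, although 46 had negative ratios (median -0.28, or -0.43 under scaling to equal sums). Among 35 ranked splicing regulators 1 was higher, near the 2.01% of all ranked genes. It was Rbfox1 (4.68 and 0.854 FPKM, 1.62), which went on to 6.04, 10.4 and 14.9 FPKM.

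Both libraries held RNA of Y-linked genes and of Xist, which is made from the inactive X chromosome. Eif2s3y had 63.3 FPKM at PN1 and 35.6 at E17, and Xist 7.76 and 11.0, both under 2-fold. Xist was 17.6 FPKM at PN10 and at most 0.0431 at PN28 and PN90, with Eif2s3y at 44.0, 79.2 and 81.1 at these stages.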
